A study of Caenorhabditis elegans with 9 samples.

Results

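The genes described here are 9 *Caenorhabditis elegans* genes for the peroxisomal beta-oxidation of fatty acyl chains and for the shortening of ascaroside side chains. They were taken by gene name, by a list drawn up when earlier results of these data were known: the acyl-CoA oxidase genes *acox-1.1*, *acox-1.2*, *acox-1.3*, *acox-1.4*, *acox-1.5* and *acox-3*, the hydratase gene *maoc-1*, the dehydrogenase gene *dhs-28* and the thiolase gene *daf-22*. All 9 were found among the 20444 genes of the deposited tables, and all 9 passed the filter on low counts. RNA of whole animals at the fourth larval stage (L4) was sequenced in 9 libraries, 3 per group. The first group was *nhr-114(gk849)* mutants whose mothers received 8 µM vitamin B12, the second was the same mutants with maternal vehicle, and the third was wild type with maternal vehicle. *nhr-114* encodes a nuclear hormone receptor of the HNF4 family, and both mutant groups carried the same single allele. The labels name no selection by sex or tissue, and no wild-type group with B12 was among the samples analysed here.

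Peroxisomal beta-oxidation removes 2-carbon units from very long acyl chains in a cycle of steps. An acyl-CoA oxidase introduces a double bond, a hydratase adds water, a dehydrogenase oxidises the hydroxyl group, and a thiolase splits off acetyl-CoA. In *C. elegans* the cycle also trims the side chains of ascarosides, the small glycolipid pheromones that act in dauer formation, mating and aggregation. Worms without *daf-22*, *dhs-28* or *maoc-1* are known for large lipid droplets and for the loss of short-chain ascarosides, and the several oxidases differ in the side chains that they accept.

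Library totals ran from 14461993 to 16659895 estimated counts, and 14795 genes were tested. *nhr-114* had 3, 2 and 4 counts in mutants with B12 and 3, 4 and 4 in mutants with vehicle, against 6954, 8027 and 7436 in wild type. Genes of spermatogenesis moved with the groups: the summed level of the 30 tested genes of that list was 352 to 430 CPM (counts scaled to library size, TMM-normalised) in mutants with B12 and 117 to 185 CPM in mutants with vehicle, against 269 to 350 CPM in wild type. The 14 tested intestinal genes summed to 7166 to 8247 CPM in mutants with B12, 9384 to 11289 CPM in mutants with vehicle and 8244 to 9835 CPM in wild type. The 15 genes of the hypodermis summed to 6673 to 8906 CPM in mutants with B12, 4703 to 5422 CPM in mutants with vehicle and 5596 to 6789 CPM in wild type. This sum rests on few genes, since 4 of the 15 made up 74.8% of it: *dpy-13*, a collagen gene, averaged 3642 CPM in mutants with B12 and 981 CPM in mutants with vehicle, while 11 of the 15 had a lower mean with B12 than with vehicle. Of the spermatogenesis genes 1, *ssp-19*, was at 0 in a library, mutant vehicle replicate 3, whereas no intestinal or hypodermal gene fell under 7.13 CPM in any library. Whole animals were sequenced, so a smaller share of cells of a type cannot be told apart from less RNA per cell. Separate cultures are not named for the replicates, and the p-values therefore rest on a spread between libraries that may be technical.

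The oxidases and the later steps of the cycle did not move as one group. In mutants with vehicle, *acox-1.2* was 5.53-fold lower than in wild type, and *acox-1.3*, *acox-1.4* and *acox-1.5* were lower by 1.58-fold to 1.91-fold. In the same comparison *acox-3*, *maoc-1* and *daf-22* were 1.395-fold to 1.56-fold higher, while *acox-1.1* and *dhs-28* did not pass the test. In mutants with B12 the levels of *acox-1.2* and *acox-1.4* were 5.43-fold and 1.87-fold above those of mutants with vehicle, and neither differed from wild type past the threshold. *daf-22* and *maoc-1* remained above wild type in mutants with B12.

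The first comparison set mutants with vehicle over wild type and asks what differed when *nhr-114* was lost and no B12 was added. Of the 9 genes, 3 were higher and 4 were lower at an adjusted p under 0.05 (edgeR quasi-likelihood test, Benjamini-Hochberg adjustment over all genes tested). Among all 14795 genes, 18.3% were higher and 18.3% were lower. The median log2 fold change of the 9 genes was -0.05, against 0.01 over all genes tested. The second comparison set mutants with B12 over mutants with vehicle. There 2 of the 9 genes were higher and 0 were lower, against 22.6% higher and 23.8% lower among all genes, with a median of 0.09 for the 9 genes and -0.04 over all. The third comparison set mutants with B12 over wild type, with 2 of the 9 genes higher and 1 lower. Among all genes 7.28% were higher and 6.13% were lower there, and the medians were 0.07 for the 9 genes and -0.00065 over all. The 3 comparisons share libraries in pairs, so their values are given side by side and are not independent of each other.

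**Figure D1:**
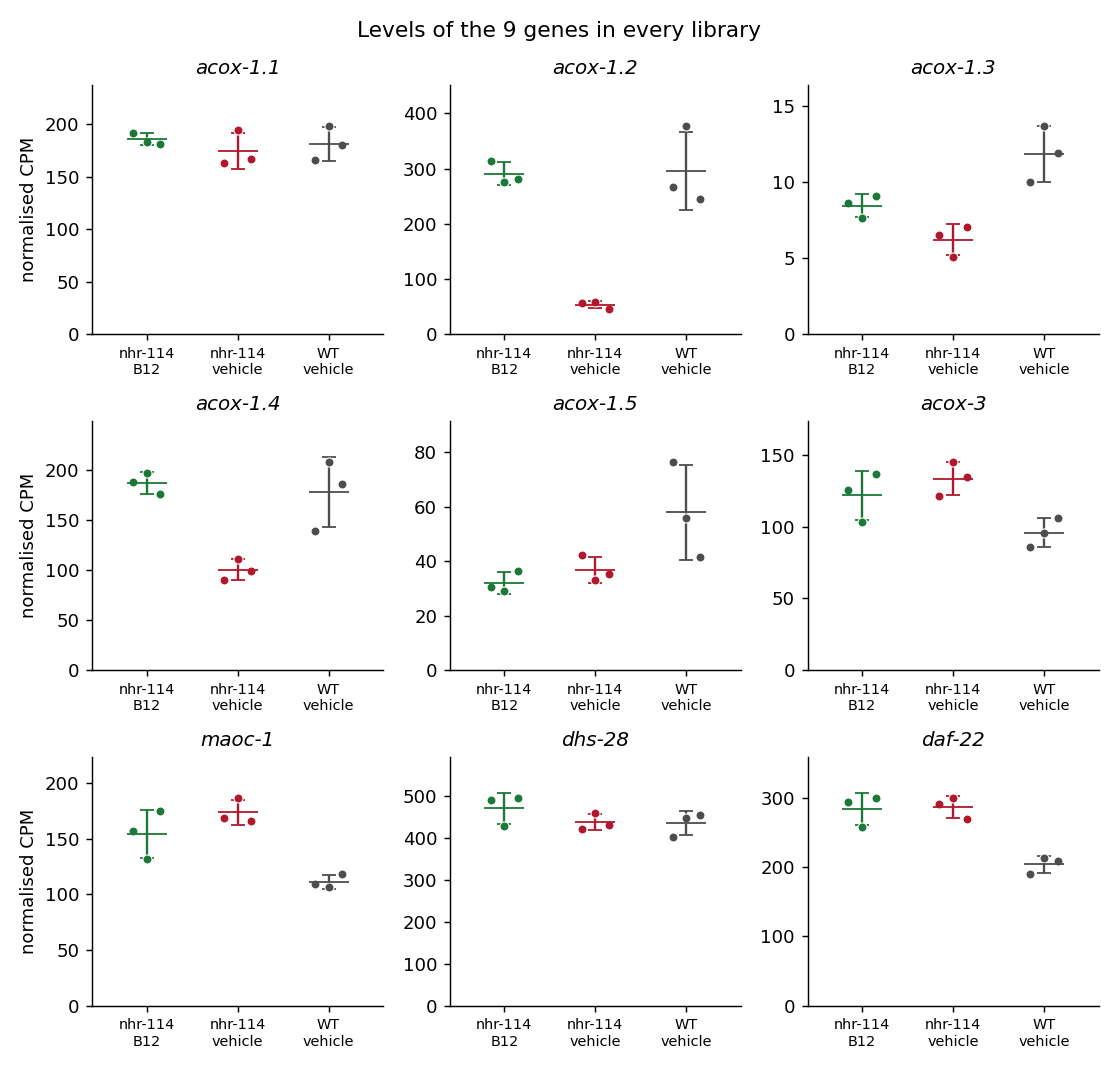
TMM-normalised CPM (vertical axes, from 0) of the 9 genes in each library, with 1 panel per gene and the groups in the order nhr-114 B12, nhr-114 vehicle and WT vehicle; points are libraries, bars the mean and SD (n = 3). The *acox-1.2* points of mutants with vehicle lie between 46.1 and 57.5 CPM, under all points of the other groups.

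**Figure D2:**
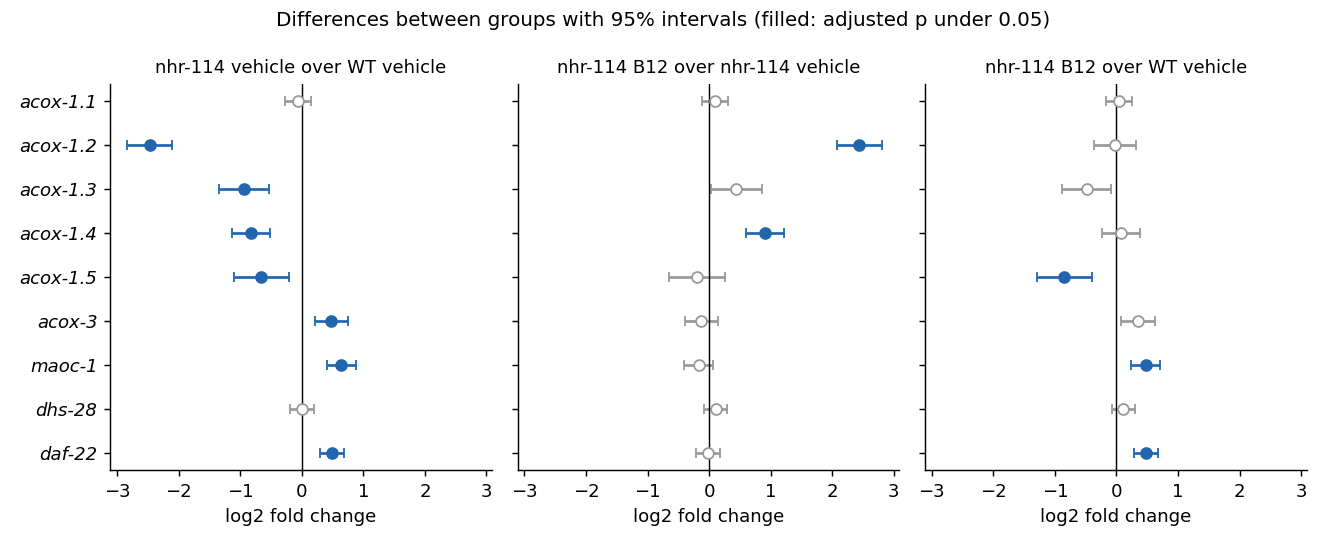
Log2 fold change (horizontal axes) of each gene in the 3 comparisons, with 95% confidence intervals from edgeR; filled points passed an adjusted p of 0.05. *acox-1.2* stands at -2.47 in the left panel, 2.44 in the middle panel and -0.03 in the right panel.

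Among the oxidases, *acox-1.2* (F08A8.2, WBGene00008565, WBcel235 chromosome I, 12942280 to 12946588, plus strand) encodes an enzyme known to act on ascarosides whose side chain is attached at its terminal carbon. Its level was 314, 277 and 282 CPM in mutants with B12 and 57.0, 57.5 and 46.1 CPM in mutants with vehicle, against 267, 376 and 244 CPM in wild type. All 3 libraries of mutants with vehicle were low, while the other 2 groups were high and overlapped, with wild-type replicate 2 the highest library. The log2 fold change of mutants with vehicle over wild type was -2.47 ± 0.16 SE (edgeR adjusted p = 3.22e-06). It was the 108th lowest of the 14795 genes tested. Between mutants with B12 and mutants with vehicle it was 2.44 ± 0.16 SE (edgeR adjusted p = 6.94e-06), the 312th highest. Mutants with B12 differed from wild type by -0.03 (95% interval -0.37 to 0.32, edgeR adjusted p = 0.940). With a covariate for each library's spermatogenesis level, the first difference was -2.50 (edgeR adjusted p = 0.00813) and the second was 2.48 but no longer passed (edgeR adjusted p = 0.0562). This covariate largely follows the groups (variance inflation 8.62), so little is left to test with it, here and for the genes below. Over all genes tested, 386 and 69 passed with it in these comparisons, against 5422 and 6866 without it.

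*acox-1.4* (F08A8.4, WBGene00008567, chromosome I, 12951134 to 12954003, plus strand), an oxidase paralog in the same stretch of the chromosome, moved in the same directions. It had 188, 197 and 176 CPM in mutants with B12 and 90.4, 111 and 98.6 CPM in mutants with vehicle, against 139, 208 and 186 CPM in wild type. Mutants with vehicle lay under both other groups with no overlap, and the spread was widest in wild type. The log2 fold change was -0.83 ± 0.14 SE over wild type (edgeR adjusted p = 0.00111) and 0.90 ± 0.14 SE for B12 over vehicle (edgeR adjusted p = 5.36e-04). For B12 over wild type it was 0.07 (95% interval -0.23 to 0.38). With the spermatogenesis covariate, which leaves little to test, the first 2 differences were -0.84 (edgeR adjusted p = 0.277) and 0.92 (edgeR adjusted p = 0.415), and neither passed.

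*acox-1.3* (F08A8.3, WBGene00008566, chromosome I, 12946932 to 12951099, plus strand) encodes a subunit known to pair with the ACOX-1.1 protein, and was the least abundant of the 9 genes. Its level was 8.66, 7.64 and 9.09 CPM in mutants with B12 and 6.55, 5.08 and 7.04 CPM in mutants with vehicle, against 9.99, 13.7 and 11.9 CPM in wild type. The 3 groups did not overlap, with mutants with vehicle lowest and wild type highest. The log2 fold change of mutants with vehicle over wild type was -0.93 ± 0.18 SE (edgeR adjusted p = 0.00289). With the spermatogenesis covariate it was -0.57 (edgeR adjusted p = 0.565). Mutants with B12 differed from mutants with vehicle by 0.44 ± 0.19 SE (edgeR adjusted p = 0.0738) and from wild type by -0.49 ± 0.18 SE (edgeR adjusted p = 0.106), so neither passed, although upper quartile scaling brought the first of these under the threshold (0.51, edgeR adjusted p = 0.0454).

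The genes *acox-1.1* to *acox-1.4* lie head to tail on the plus strand of chromosome I, with 52, 343 and 34 bases between neighbours in the WBcel235 annotation. Kallisto divides reads that fit several similar transcripts by its model. The estimated counts of *acox-1.2*, *acox-1.3* and *acox-1.4* carried fractions in most libraries, so their separate values are uncertain. Those of *acox-1.1* were whole numbers in each library, with no sign of reads divided with its paralogs. *acox-1.3* has the fewest counts of the 4. The 4 genes were also summed and tested as 1 gene, a step chosen after seeing the data. The sum was 703, 665 and 648 CPM in mutants with B12 and 316, 368 and 318 CPM in mutants with vehicle, against 582, 795 and 622 CPM in wild type. Mutants with vehicle again lay apart from both other groups. For this sum, the log2 fold change was -0.996 ± 0.119 SE over wild type (edgeR adjusted p = 1.48e-04). It was 1.01 ± 0.119 SE for B12 over vehicle (edgeR adjusted p = 1.29e-04). For B12 over wild type it was 0.01 (95% interval -0.25 to 0.27). This sum includes *acox-1.1*, whose counts were not divided. A planned sum, of *acox-1.2* to *acox-1.5*, leaves it out. Its log2 fold change was -1.467 ± 0.116 SE over wild type (edgeR adjusted p = 1.01e-05). For B12 over vehicle it was 1.399 ± 0.116 SE (edgeR adjusted p = 2.08e-05). For B12 over wild type it was -0.068 (95% interval -0.319 to 0.183).

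Genes around the 4 oxidases were looked at after their values were seen. Y18D10A.22, whose position is not given here, had 1.38 to 2.03 CPM in mutants with B12 and 1.36 to 1.79 CPM in mutants with vehicle. In wild type it had 2.31 to 5.04 CPM. It was lower in mutants with vehicle than in wild type (-1.17 ± 0.32 SE, edgeR adjusted p = 0.0161) and did not pass in the other comparisons. Y18D10A.21, which lies before *acox-1.1* with 7439 bases between them, was low throughout. It had 4.54 to 5.55 CPM in mutants with B12 and 0.879 to 1.02 CPM in mutants with vehicle. In wild type it had 4.08 to 5.38 CPM. Its log2 fold change was -2.23 ± 0.24 SE for mutants with vehicle over wild type (edgeR adjusted p = 6.81e-05) and 2.37 ± 0.24 SE for B12 over vehicle (edgeR adjusted p = 5.18e-05). On the other side, F08A8.5, *fbxa-140*, C47B2.2, *pbs-2* and *eif-6* did not pass in any of the 3 comparisons. *tba-2* was higher for B12 over vehicle (0.31 ± 0.09 SE, edgeR adjusted p = 0.0121) and did not pass in the others. *fbxa-101*, an F-box gene, was lower in mutants with vehicle by -0.61 ± 0.16 SE (edgeR adjusted p = 0.0116) and 0.62 ± 0.16 SE higher with B12 (edgeR adjusted p = 0.00877). F08A8.8, which overlaps *acox-1.4* by 35 bases on the opposite strand, had 7.30 to 8.11 CPM in mutants with B12 and 3.45 to 5.18 CPM in mutants with vehicle, against 5.71 to 6.68 CPM in wild type. Like *acox-1.4*, it was higher for B12 over vehicle (0.82 ± 0.19 SE, edgeR adjusted p = 0.00553). For mutants with vehicle over wild type it did not pass (-0.50, edgeR adjusted p = 0.0634). The strand setting of the libraries is not stated in the labels, and reads that fit both genes of an overlap on opposite strands cannot be told apart.

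*acox-1.1* (F08A8.1, WBGene00008564, chromosome I, 12938555 to 12942227, plus strand) encodes the oxidase subunit known to act in the shortening of long ascaroside side chains, alone or paired with other subunits. Its gene level was 192, 183 and 181 CPM in mutants with B12 and 162, 194 and 166 CPM in mutants with vehicle, against 165, 198 and 180 CPM in wild type. The 3 groups overlapped. On the log2 scale the difference was -0.05 for mutants with vehicle over wild type (95% interval -0.26 to 0.16), 0.09 for B12 over vehicle (-0.12 to 0.30) and 0.04 for B12 over wild type (-0.17 to 0.25), with edgeR adjusted p of 0.698, 0.469 and 0.849.

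Beneath this gene total, the estimates of its single transcripts were not alike between the groups. This was noticed after the gene values had been seen, and transcripts were then tested in a fit of their own. Transcript F08A8.1b.2, of 2008 bases in the deposited tables, was listed at 0 in each library of mutants with B12 and at 0, 2.14e-08 and 148 estimated counts in mutants with vehicle, against 1141, 1689 and 1756 in wild type. It held at most 5.50% of the counts of the gene in mutants with vehicle, against 40.8%, 51.9% and 57.8% in wild type. It did not pass over 19993 transcripts (edgeR adjusted p = 0.0693 for mutants with vehicle over wild type and 0.0525 for B12 over wild type), but did without mutant vehicle replicate 3, the only mutant library above 1 estimated count (0.00223 and 0.00270). No fold is given because the mutant libraries were at or near 0.

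The 3 transcripts of *acox-1.1* of 2131 bases (F08A8.1a.2, F08A8.1b.1 and F08A8.1c.2) received equal estimates in every library and were counted as 1. Together they had 3093, 2574 and 2581 estimated counts in mutants with B12 and 2370, 3036 and 2495 in mutants with vehicle, against 1658, 1490 and 1174 in wild type. Both mutant groups lay above wild type in each library. Their log2 fold change was 0.94 ± 0.13 SE for mutants with vehicle over wild type (edgeR adjusted p = 0.00246) and 1.11 ± 0.13 SE for B12 over wild type (edgeR adjusted p = 0.00341). Between mutants with B12 and mutants with vehicle it was 0.18 ± 0.13 SE (edgeR adjusted p = 0.362). Among all transcripts tested 23.0%, 29.1% and 6.83% passed in the first, the second and the third comparison, in either direction. These transcripts share most of their sequence, and how the authors' release of the annotation drew F08A8.1b.2 was not analysed here.

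**Figure D3:**
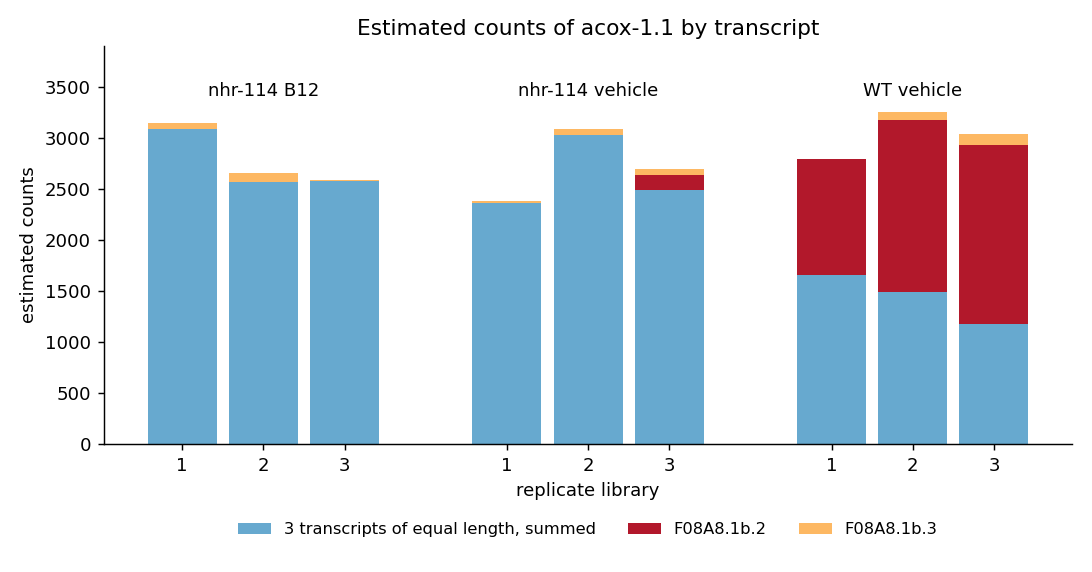
Estimated counts (vertical axis, stacked from 0) of the transcripts of *acox-1.1* in each replicate library, by group. F08A8.1b.2 stands at 148 estimated counts or less in each mutant library, against 1141 to 1756 in wild type, while the column heights of the groups overlap.

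Transcripts of 2 other oxidase genes received estimates that differed from each other. Reads that fit several transcripts of a gene are divided by the model, so these values are uncertain. For *acox-1.4*, transcript F08A8.4.2 had 1733, 1675 and 1743 estimated counts in mutants with B12 and 937, 961 and 1304 in mutants with vehicle, against 1347, 1370 and 1748 in wild type. Its log2 fold change for B12 over vehicle was 0.81 ± 0.15 SE (edgeR adjusted p = 0.00522), and for mutants with vehicle over wild type -0.42 ± 0.15 SE (edgeR adjusted p = 0.0748), which passed without mutant vehicle replicate 3 (-0.54, edgeR adjusted p = 0.0366). The other transcript, F08A8.4.1, varied more between replicates, at 772 to 1347 estimated counts in mutants with B12, 294 to 810 in mutants with vehicle and 1011 to 2048 in wild type. F08A8.4.1 was lower in mutants with vehicle than in wild type (-1.52 ± 0.42 SE, edgeR adjusted p = 0.0339), but leaving out B12 replicate 1 or 2, mutant vehicle replicate 1 or 3, or wild-type replicate 2 or 3 lost the call (edgeR adjusted p = 0.0540 to 0.104). For B12 over vehicle it was 1.26 (edgeR adjusted p = 0.0552), and it passed without mutant vehicle replicate 2 (1.71, edgeR adjusted p = 0.0214). For *acox-3*, F58F9.7.1 held 74.4% to 96.0% of the counts of the gene over the 9 libraries, and no transcript passed in any comparison over all 9 libraries. Without B12 replicate 2, F58F9.7.1 passed for mutants with vehicle over wild type (0.48, edgeR adjusted p = 0.0404).

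*acox-1.5* (C48B4.1, WBGene00008167, chromosome III, 9586618 to 9592192, minus strand), a further oxidase paralog outside the cluster, was lower in both mutant groups. It had 30.7, 29.0 and 36.6 CPM in mutants with B12 and 42.2, 32.9 and 35.1 CPM in mutants with vehicle, against 76.3, 55.8 and 41.5 CPM in wild type. Wild-type libraries were spread widely, and the lowest of them lay under the highest of mutants with vehicle, while mutants with B12 lay under all of wild type. The fitted log2 fold change was -0.66 ± 0.20 SE for mutants with vehicle over wild type (edgeR adjusted p = 0.0262) and -0.85 ± 0.20 SE for B12 over wild type (edgeR adjusted p = 0.0203). For B12 over vehicle it was -0.20 (95% interval -0.64 to 0.25). Leaving out wild-type replicate 1 or 2, or else mutant vehicle replicate 2 or 3, lost the first call (log2 fold change -0.68 to -0.42, edgeR adjusted p = 0.0510 to 0.0882). It was also lost with the spermatogenesis covariate, where the log2 fold change was -0.88 (edgeR adjusted p = 0.404). The call for B12 over wild type was lost without B12 replicate 1 or 2 (-0.82 and -0.79, edgeR adjusted p = 0.0738 and 0.0674), with the covariate (-0.78, edgeR adjusted p = 0.0820) and when tested among transcripts (edgeR adjusted p = 0.0566).

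*acox-3* (F58F9.7, WBGene00019060, chromosome IV, 6245358 to 6248492, minus strand), another acyl-CoA oxidase of the family, was higher in mutants with vehicle. Its level was 126, 103 and 137 CPM in mutants with B12 and 122, 145 and 135 CPM in mutants with vehicle, against 85.8, 95.6 and 106 CPM in wild type. Mutants with vehicle lay above wild type, whereas B12 replicate 2 fell within the wild-type range. The log2 fold change of mutants with vehicle over wild type was 0.48 ± 0.12 SE (edgeR adjusted p = 0.0105, and 0.0677 with limma on TPM). With the spermatogenesis covariate it was 0.15 (edgeR adjusted p = 0.828). Mutants with B12 differed by 0.35 ± 0.12 SE from wild type (edgeR adjusted p = 0.0867, and 0.0421 without B12 replicate 2) and by -0.13 from mutants with vehicle (95% interval -0.40 to 0.14).

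The hydratase gene *maoc-1* (E04F6.3, WBGene00017123, chromosome II, 7196276 to 7197495, plus strand), which acts after the oxidases, was higher in both mutant groups. It had 157, 132 and 175 CPM in mutants with B12 and 169, 187 and 166 CPM in mutants with vehicle, against 109, 107 and 119 CPM in wild type. Every mutant library lay above every wild-type library, and the mutant groups overlapped. In log2 units the difference was 0.64 ± 0.11 SE for mutants with vehicle over wild type (edgeR adjusted p = 0.00111), or 0.32 with the spermatogenesis covariate (edgeR adjusted p = 0.552), and 0.47 ± 0.11 SE for B12 over wild type (edgeR adjusted p = 0.0160). The second of these was lost without wild-type replicate 2 (0.0569), without B12 replicate 1 (0.0503) and with limma on TPM (0.17, adjusted p = 0.233). For B12 over vehicle it was -0.17 (95% interval -0.41 to 0.07, edgeR adjusted p = 0.218), and limma on TPM called it lower (-0.33, adjusted p = 0.0249).

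The gene E04F6.6 overlaps *maoc-1* by 105 bases on the opposite strand. It had 96.0, 59.0 and 146 estimated counts in mutants with B12 and 714, 891 and 993 in mutants with vehicle, against 536, 128 and 140 in wild type. Its log2 fold change was 1.80 ± 0.55 SE for mutants with vehicle over wild type (edgeR adjusted p = 0.0355) and -3.05 ± 0.60 SE for B12 over vehicle (edgeR adjusted p = 0.00408). Like *maoc-1*, it was higher in mutants with vehicle than in wild type. Unlike *maoc-1*, it was low in mutants with B12 and high in wild-type replicate 1. The estimated counts of both genes carried fractions in B12 replicate 1, mutant vehicle replicate 2 and wild-type replicates 1 and 2. In wild-type replicate 1 they were 1844.85 for *maoc-1* and 536.149 for E04F6.6. This is a sign of reads divided between them. The part of the overlap in the *maoc-1* values was not tested.

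The dehydrogenase gene *dhs-28* (M03A8.1, WBGene00000991, chromosome X, 6818438 to 6820080, plus strand) did not pass in any of the 3 comparisons. Its level was 491, 428 and 496 CPM in mutants with B12 and 423, 459 and 432 CPM in mutants with vehicle, against 404, 448 and 457 CPM in wild type. The 3 groups overlapped. The log2 fold change was 0.01 for mutants with vehicle over wild type (95% interval -0.18 to 0.20), 0.11 for B12 over vehicle (-0.09 to 0.30) and 0.11 for B12 over wild type (-0.08 to 0.30), with edgeR adjusted p of 0.961, 0.344 and 0.439. *gei-15*, which overlaps it by 76 bases on the opposite strand, had 362 to 525 estimated counts in mutants with B12, 537 to 639 in mutants with vehicle and 445 to 467 in wild type. The estimated counts of both genes were whole numbers in each library, with no sign of reads divided between them.

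The thiolase gene *daf-22* (Y57A10C.6, WBGene00013284, chromosome II, 12423518 to 12425694, minus strand), which completes the cycle, was higher in both mutant groups. It had 294, 258 and 299 CPM in mutants with B12 and 291, 299 and 269 CPM in mutants with vehicle, against 190.2, 213 and 209 CPM in wild type. All 6 mutant libraries lay above all 3 wild-type libraries. On the log2 scale the difference was 0.49 ± 0.09 SE for mutants with vehicle over wild type (edgeR adjusted p = 0.00167) and 0.48 ± 0.09 SE for B12 over wild type (edgeR adjusted p = 0.00586). For B12 over vehicle it was -0.01 (95% interval -0.21 to 0.18). With the spermatogenesis covariate the call over wild type held for B12 (0.50, edgeR adjusted p = 0.0158) and not for mutants with vehicle (0.39, edgeR adjusted p = 0.411), and limma on TPM lost the call for B12 (adjusted p = 0.0583).

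Levels of different genes were compared per length, as TPM, which scales counts to transcript length and library size. *dhs-28* was the most abundant of the 9 in each group, with a mean of 295 TPM in mutants with B12, 304 TPM in mutants with vehicle and 323 TPM in wild type. *acox-1.3* was the least abundant, with means of 3.40, 2.83 and 5.64 TPM in the same groups. *daf-22* was second in each group, at 177, 198 and 149 TPM. *acox-1.2* took the fourth place in mutants with B12 (118 TPM) and the seventh in mutants with vehicle (24.2 TPM), against the third in wild type (141 TPM). In wild type the libraries of *daf-22* and *acox-1.2*, of *acox-1.2* and *maoc-1*, and of *acox-1.1* and *acox-1.4* overlapped, so the order within these pairs is not beyond their spread. In mutants with B12 the same held for *maoc-1* and *acox-1.2* and for *acox-1.4* and *acox-1.1*, and in mutants with vehicle no neighbours in the order overlapped.

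The makeup of the oxidase transcripts differed accordingly. The 6 oxidase genes summed to 349, 320 and 314 TPM in mutants with B12 and 217, 231 and 218 TPM in mutants with vehicle, against 339, 455 and 370.0 TPM in wild type. TPM carry no TMM scaling between groups. On log2(TPM + 1) the median of all genes shifted from the main fit by -0.09, -0.13 and -0.22 in the 3 comparisons. Differences of the sum were not corrected for this. Mutants with vehicle lay under both other groups in the sum. *acox-1.2* made up 35.9% ± 1.24 of this sum in mutants with B12 and 10.9% ± 1.28 in mutants with vehicle, against 35.9% ± 4.03 in wild type (SD, n = 3 each). *acox-1.1* and *acox-3* had the 2 largest shares in mutants with vehicle, at 33.8% ± 0.908 and 27.0% ± 1.28, against 22.1% ± 1.298 and 12.3% ± 1.98 in wild type (SD, n = 3 each). The ratio of *daf-22* to *dhs-28* in TPM was 0.600 ± 0.00224 in mutants with B12 and 0.652 ± 0.0355 in mutants with vehicle, against 0.461 ± 0.0122 in wild type (SD, n = 3 each). The ratio of *maoc-1* to *dhs-28* was 0.474 ± 0.0350 in mutants with B12 and 0.575 ± 0.0150 in mutants with vehicle, against 0.385 ± 0.0199 in wild type (SD, n = 3 each).

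For the oxidase sum, the share of *acox-1.2* and these 2 ratios, 12 exact two-sided permutation tests over libraries were made, 3 for each. With 3 libraries against 3 the smallest p they can give is 0.1, which adjusted over the 12 tests was 0.12. Of the 12 tests, 10 reached it because the groups did not overlap. The others were B12 over wild type for the share of *acox-1.2* (exact permutation p = 1) and for the sum (exact permutation p = 0.2).

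**Figure D4:**
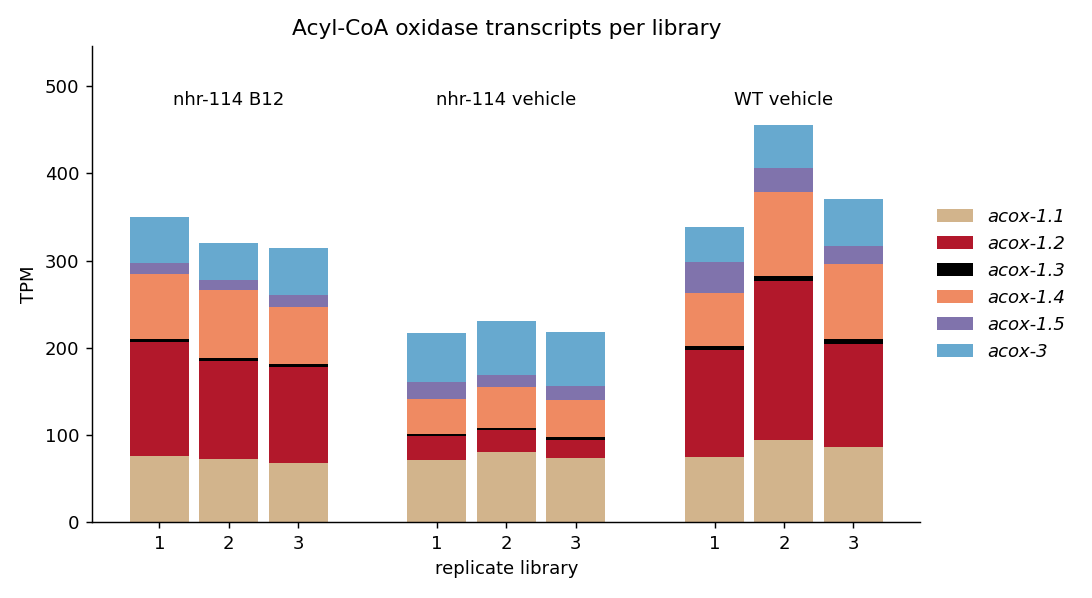
TPM (vertical axis, stacked from 0) of the 6 acyl-CoA oxidase genes in each replicate library, by group. The column heights are 314 to 349 TPM in mutants with B12, 217 to 231 TPM in mutants with vehicle and 339 to 455 TPM in wild type, and the *acox-1.2* part is thin in mutants with vehicle.

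The likeness of 2 profiles was measured as the root-mean-square difference of their centred log2 CPM over the 9 libraries, which is 0 for profiles of the same shape. Among the 9 genes, *acox-1.1* and *dhs-28* were closest (0.0823), followed by *acox-3* and *maoc-1* (0.0946), *maoc-1* and *daf-22* (0.104) and *acox-3* and *daf-22* (0.111). *acox-1.2* was farthest from the rest, at 0.771 from *acox-1.4* and 1.38 from *maoc-1*. The libraries and their depth are common to all of these values, which are descriptions without a test.

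**Figure D5:**
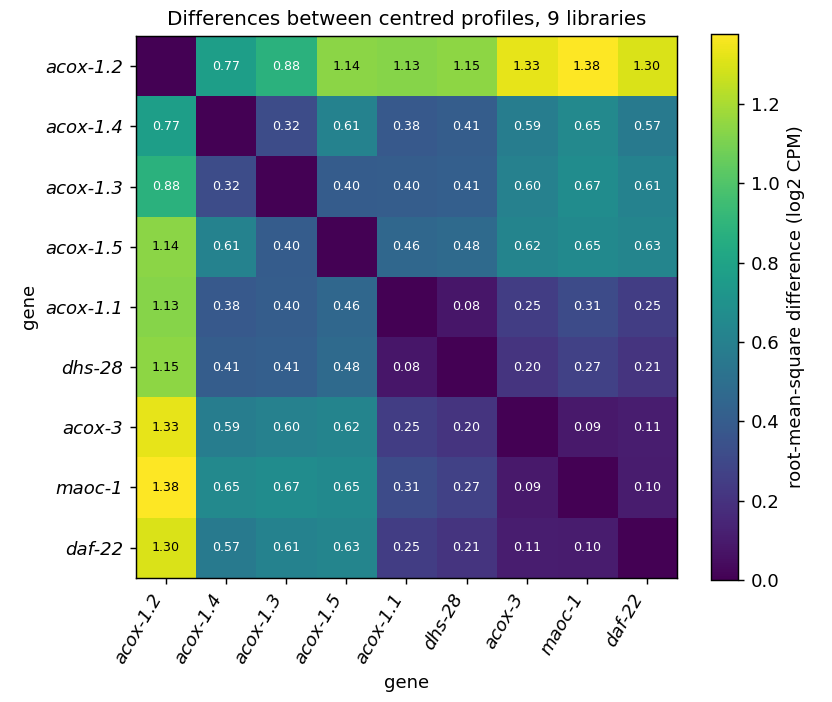
Root-mean-square difference of the centred log2 CPM profiles over 9 libraries for each pair of the 9 genes (colour and printed value, 0 meaning the same shape). *acox-3*, *maoc-1* and *daf-22* form a corner with values of 0.09 to 0.11, and the row of *acox-1.2* holds values of 0.77 and above.

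Of the 10441 genes compared with *daf-22* in this way (mean of at least 5 CPM), the 5 most alike were *hacl-1* (0.0593), *plst-1* (0.0796), *dhrs-4* (0.0820), *pcca-1* (0.0877) and *pycr-4* (0.0887). *hacl-1*, which encodes a 2-hydroxyacyl-CoA lyase, had 345, 310 and 343 CPM in mutants with B12 and 336, 375 and 346 CPM in mutants with vehicle, against 231, 266 and 266 CPM in wild type. Both mutant groups lay above wild type. Its log2 fold change was 0.47 ± 0.09 SE for mutants with vehicle over wild type (edgeR adjusted p = 0.00215) and 0.39 ± 0.09 SE for B12 over wild type (edgeR adjusted p = 0.0161). These 5 genes were picked for a profile like that of *daf-22* over the same libraries, so their values describe them and test nothing. *pcca-1*, which encodes the alpha subunit of propionyl-CoA carboxylase, averaged 317 ± 11.1 CPM in mutants with B12 and 333 ± 9.70 CPM in mutants with vehicle, against 248 ± 6.30 CPM in wild type (SD, n = 3 each).

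Other peroxisomal genes were taken from lists written by function. Among all genes tested, 18.3% were higher and 18.3% lower in mutants with vehicle over wild type. The shares were 22.6% and 23.8% for B12 over vehicle, and 7.28% and 6.13% for B12 over wild type. The lists are short, and a count near these shares is no result about its list. Of 11 peroxins, which build the organelle and import its enzymes, 3 were higher and 0 lower in mutants with vehicle over wild type, with a median log2 fold change of 0.19. For B12 over vehicle 0 were higher and 9 lower, with a median of -0.42, and for B12 over wild type 0 were higher and 1 lower. Without mutant vehicle replicate 2 the number lower for B12 over vehicle was 5. The number lower for B12 over wild type became 0 or 2 in 7 of the 9 fits that left out 1 library. *prx-11*, a gene for peroxisome division, averaged 13.1 CPM in mutants with B12 and 24.6 CPM in mutants with vehicle, against 11.6 CPM in wild type. Its log2 fold change was 1.08 ± 0.20 SE for mutants with vehicle over wild type (edgeR adjusted p = 0.00208) and -0.91 ± 0.20 SE for B12 over vehicle (edgeR adjusted p = 0.00392). The import receptor gene *prx-5* was lower for B12 over vehicle (-0.49 ± 0.11 SE, edgeR adjusted p = 0.00541), as was *prx-19*, for the insertion of membrane proteins (-0.39 ± 0.07 SE, edgeR adjusted p = 0.00200).

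Of 5 ABC transporter genes of the peroxisomal family, 1 was higher and 2 lower in mutants with vehicle over wild type, 1 and 1 for B12 over vehicle, and 1 and 3 for B12 over wild type. In the same order, the shares over all genes were 18.3% and 18.3%, 22.6% and 23.8%, and 7.28% and 6.13%. *pmp-5*, related to human ABCD4, which is known for moving cobalamin out of lysosomes, had 66.8, 71.3 and 47.0 CPM in mutants with B12 and 26.3, 29.1 and 28.1 CPM in mutants with vehicle, against 559, 682 and 619 CPM in wild type. The 3 groups did not overlap. Its log2 fold change was -4.48 ± 0.16 SE for mutants with vehicle over wild type (edgeR adjusted p = 7.21e-08), 1.15 ± 0.15 SE for B12 over vehicle (edgeR adjusted p = 1.94e-04) and -3.33 ± 0.15 SE for B12 over wild type (edgeR adjusted p = 6.81e-07). *pmp-4*, of the transporters for fatty acyl chains, was higher by 0.65 ± 0.13 SE in mutants with vehicle over wild type (edgeR adjusted p = 0.00293) and by 0.45 ± 0.13 SE for B12 over wild type (edgeR adjusted p = 0.0434), a call lost in 7 of the 9 fits that left out 1 library.

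Of 11 other peroxisomal enzyme genes, 4 were higher and 2 lower in mutants with vehicle over wild type, 3 and 3 for B12 over vehicle, and 2 and 1 for B12 over wild type. Beside them stand the shares over all genes of 18.3% and 18.3%, 22.6% and 23.8%, and 7.28% and 6.13%. The 2 higher for B12 over wild type became 1 in 6 of the 9 fits that left out 1 library. The ether lipid genes *fard-1*, for a fatty acyl-CoA reductase, and *acl-7*, for an acyltransferase, were higher in mutants with vehicle (1.36 ± 0.10 and 1.197 ± 0.10 SE, edgeR adjusted p = 5.65e-06 and 1.64e-05) and lower for B12 over vehicle (-1.17 ± 0.10 and -1.07 ± 0.10 SE, edgeR adjusted p = 2.30e-05 and 4.37e-05). *gstk-1*, a kappa-class glutathione transferase gene, was higher by 1.85 ± 0.13 SE for B12 over wild type (edgeR adjusted p = 1.00e-05). *acox-1.6*, an oxidase gene outside the 9, was higher for B12 over vehicle (0.54 ± 0.11 SE, edgeR adjusted p = 0.00234).

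Of 7 genes that attach head groups to ascarosides or belong to the organelle where this happens, 2 were higher and 1 lower in mutants with vehicle over wild type, 2 and 2 for B12 over vehicle, and 3 and 0 for B12 over wild type. Over all genes the shares were 18.3% and 18.3%, 22.6% and 23.8%, and 7.28% and 6.13%. Without wild-type replicate 3 the number higher in mutants with vehicle was 5, and the number higher for B12 over wild type was 1 when B12 replicate 1, B12 replicate 2, mutant vehicle replicate 3 or wild-type replicate 1 was left out. *acs-7*, an acyl-CoA synthetase gene needed for ascarosides with an indole group, was higher by 0.66 ± 0.12 SE in mutants with vehicle over wild type (edgeR adjusted p = 0.00192) and by 1.09 ± 0.12 SE for B12 over wild type (edgeR adjusted p = 3.02e-04). The carboxylesterase gene *cest-3* was lower in mutants with vehicle (-0.69 ± 0.16 SE, edgeR adjusted p = 0.00806) and higher for B12 over vehicle (1.24 ± 0.16 SE, edgeR adjusted p = 2.37e-04). *glo-1*, a Rab GTPase gene of the gut granules, was higher in mutants with vehicle (0.91 ± 0.18 SE, edgeR adjusted p = 0.00295) and lower for B12 over vehicle (-1.31 ± 0.19 SE, edgeR adjusted p = 3.44e-04). Of 8 ascaroside receptor genes only 2 had enough counts to be tested. One of these, *daf-37*, was higher for B12 over vehicle (1.08 ± 0.28 SE, edgeR adjusted p = 0.00932) at 2.41 to 8.39 CPM over the 9 libraries.

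Of 30 tested spermatogenesis genes, 1 was higher and 17 lower in mutants with vehicle over wild type, 22 and 1 for B12 over vehicle, and 1 and 0 for B12 over wild type. Of 14 genes of the intestine, a tissue where enzymes of this cycle are known to be made, 10 were higher and 0 lower in mutants with vehicle over wild type, 1 and 10 for B12 over vehicle, and 1 and 2 for B12 over wild type. Of 15 hypodermal genes, 3 were higher and 4 lower, 3 and 8, and 2 and 7 in the same comparisons. All genes tested gave 18.3% higher and 18.3% lower, 22.6% and 23.8%, and 7.28% and 6.13%. The 10 intestinal genes higher in the first comparison became 5 without replicate 2 of mutants with vehicle, and 6 without replicate 1 or 3 of that group or replicate 3 of wild type. The 3 hypodermal genes higher there became 0 without replicate 3 of mutants with vehicle, and 1 without replicate 1 or 2 of that group, replicate 2 of mutants with B12, or replicate 2 or 3 of wild type. The direction of the spermatogenesis list was that of *acox-1.2* and *acox-1.4* in the first 2 comparisons, and the direction of the intestinal list in the first was that of *acox-3*, *maoc-1* and *daf-22*. For B12 over vehicle the median log2 fold change of the intestinal list was -0.50, while *acox-3*, *maoc-1* and *daf-22* did not pass (-0.13, -0.17 and -0.01). For B12 over wild type that median was -0.09, while *maoc-1* and *daf-22* were higher (0.47 and 0.48). With the spermatogenesis level as covariate, 2.61%, 0.466% and 8.47% of all genes tested passed in the 3 comparisons, and 0 of the 11 peroxins passed, a count near these shares. The part of the intestinal and hypodermal levels in these results was not tested.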

How the data were processed

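Whole-animal L4 RNA of 3 groups (3 libraries each) was sequenced as paired ends. Per the submitters' processing notes, reads were demultiplexed with bcl2fastq and quantified by kallisto 0.46.0 against a WormBase reference (WS245, per the labels). The authors deposited estimated counts, TPM and transcript lengths for 30939 transcripts per library, per the file headers, and a series table of CPM per gene. Those deposited CPM were, for 99.6% of 19013 matched entries, within 1% of CPM from the summed counts.

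Estimated counts were summed per gene and rounded. Of 20444 genes, 20165 were named from the WBcel235 annotation. Genes were tested with edgeR 4.0.16 (R 4.3.3; filterByExpr, TMM, robust quasi-likelihood fit over all 9 libraries) with Benjamini-Hochberg adjustment at 0.05. The SE is the log2 fold change over the square root of F. Transcripts were tested alike, those of 1 gene with equal estimates above 0 in every library as 1. The script was tested on simulated data. Alternatives used limma 3.58.1 and DESeq2 1.42.0. Library totals ran from 14461993 to 16659895 counts.

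The 9 genes and the gene lists were chosen with earlier results of these data known. Named genes are the 9, *nhr-114*, up to 4 genes per list with the smallest adjusted p among those called, and the 5 most like *daf-22*; a subset is described, and *acox-1.6*, neighbouring genes and transcripts were added after their values were seen. Replicate numbers did not pair the samples. No pair of replicates was near sampling noise.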

Additional observations from a re-analysis of the deposited data

How the results depend on the processing

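Over 23 alternatives, 597 values of the 9 genes were recomputed: 573 kept their side of the threshold, 20 lost a call and 4 gained one. The sign changed for 41 values, 0 of them with a call in either fit, among them 6 with the spermatogenesis covariate (such as *maoc-1* for B12 over vehicle, 0.23 against -0.17). The call of *acox-1.2* over wild type held under all of its 21 alternatives. With the spermatogenesis level as covariate (variance inflation 8.62, so little is left to test), 0 of the 9 genes were higher and 1 lower in the first comparison, 0 higher in the second and 0 lower in the third, and 386, 69 and 1253 genes were called in all, against 5422, 6866 and 1984; *elt-3* in the first (-0.091) and *prx-5* in the second (0.18) changed sign. Taking *acox-1.2* to *acox-1.5* as 1 gene left 1 lower in the first, 1 higher in the second and 0 lower in the third, and taking *acox-1.1* to *acox-1.4* as 1 gene, chosen after seeing the data, 2 lower and 1 higher, since fewer genes were counted. With limma on log2(TPM + 1), 1 gene was lower in the second comparison, and 0 were higher and 2 lower in the third, where 4479 genes were called. That scale shifted the median of all genes by -0.13 and -0.22 in these comparisons, and 35.9% and 16.9% of calls were higher, against 48.6% and 54.3%. Leaving out 1 library gave 1 to 3 higher and 0 to 1 lower in the third. The replicate numbers share no origin in the labels and did not pair the samples; with the replicate block the 9 genes again gave 3 higher and 4 lower in the first comparison, 2 and 0 in the second and 2 and 1 in the third, and 5153, 6619 and 1736 genes were called. The causes were not tested. *acox-1.3* had the fewest counts of the 9 genes, and most ascaroside receptor genes had too few to be tested. *acox-1.5* lost its call under 5 of its 22 alternatives in the first comparison and under 3 of 22 in the third.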

Other observations

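By the same measure of likeness, and chosen after its values were seen, the 5 genes nearest to *acox-1.2* were *nhr-234* (0.233), *cyp-35B1* (0.277), T09D3.8 (0.290), F17B5.1 (0.301) and *cyp-35A5* (0.308). *nhr-234*, a nuclear hormone receptor gene, averaged 16.5 CPM in mutants with B12 and 3.87 CPM in mutants with vehicle, against 18.2 CPM in wild type. The cytochrome P450 gene *cyp-35A5* averaged 27.5 CPM in mutants with B12 and 6.56 CPM in mutants with vehicle, against 26.7 CPM in wild type. For all 5 the log2 fold change of mutants with vehicle over wild type passed, between -2.37 (*cyp-35B1*) and -2.03 (*cyp-35A5*), as did that of B12 over vehicle, between 2.07 (*cyp-35A5*) and 2.56 (T09D3.8). None passed for B12 over wild type (edgeR adjusted p = 0.291 to 0.931). The genes were picked for this shape, so these values describe them and test nothing.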
